A study of Mus musculus with 40 samples.

Results

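The developing mouse larynx was compared between E13.5 and E10.5 (E, embryonic day) with bulk RNA sequencing of whole tissue. The comparison used 4 of the 40 libraries of the series, chosen by their labels: 2 of the primitive laryngopharynx at E10.5, the tissue from which the larynx forms, and 2 of the larynx at E13.5. All embryos were wild type FVB/N mice with no treatment, and each library was made from tissue pooled over several embryos, so no value belongs to 1 animal. The tissue was cut out at the level of the laryngopharynx at E10.5 and at that of the vocal folds at E13.5, and 30 libraries of the same kind, from larynx, trachea and esophagus at 5 embryonic ages, shared the estimate of the spread. The study calls the 2 libraries of an age biological replicates, while the labels do not say how their pools were kept apart. The p-values measure only the spread between these libraries.

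The larynx arises from the ventral foregut and the mesenchyme around it. Its cartilages and intrinsic muscles come from the caudal pharyngeal arches, whose mesenchyme is of neural crest and mesodermal origin. Red cells carry embryonic globins at first and change to adult globins as blood formation moves to the liver, and vessels, macrophages and connective tissue enter or expand in the same days.

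The 4 libraries held between 13978474 and 24163138 estimated reads, and no library of the series was a copy of another. Mitochondrial ribosomal RNA took 12.2% and 13.4% of the reads at E10.5 and 22.8% and 25.2% at E13.5. The 2 pools of E10.5 differed in Xist, the RNA that coats the inactive X of females (7.99 and 12295 normalized counts), while those of E13.5 had 201 and 2349.8. The part of either in the results was not tested. Between 120 and 319 of 1193 olfactory receptor genes had a count in these libraries. In 26 others of the same kind the highest number was 1108, and the 3 libraries that stood apart in this way (E11.5 larynx replicate 2, E15.5 larynx replicate 2 and E15.5 trachea replicate 2) are not among the 4 compared. In bulk tissue, fewer cells of a type and less RNA per cell cannot be told apart.

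Of 35512 genes tested, 3719 (10.47%) were higher and 3001 (8.45%) lower at E13.5 by edgeR's quasi-likelihood test at an adjusted p under 0.05. Among the 16497 genes whose normalized counts averaged 10 or more in the 4 libraries, 21.5% were higher and 17.2% lower, with a median log2 fold change of −0.06. Fewer were called with 1 library left out: 2432 were higher without E10.5 replicate 2, and 1805, 1903 and 1187 were lower without E10.5 replicate 2, E13.5 replicate 1 and E13.5 replicate 2. The counts of a list can be read against these shares where most of its members are expressed at this level, which on the Hox and bone lists they are not. The shares moved with the settings too. Of these genes 22.5% and 18.7% were higher and lower with no filter on low counts, 23.7% and 16.5% with only the 4 libraries in the fit, 20.6% and 15.4% with the 10 larynx libraries and 16.7% and 11.9% with all 40 libraries. The shares were 24.8% and 22.8% with DESeq2, 24.7% and 22.8% with a filter of 10 counts and 23% and 13.2% with TMM normalization. Without the 3 libraries rich in olfactory receptor genes the shares were 23.7% and 21%. List counts with 1 library left out go with fewer calls over all genes. Counts of a list above 0 are given under another setting where they moved by over 1.5 times, save some with 1 library left out. Counts of 0 are those of the fit of 30 libraries, and a few became 1 or 2 in other fits. Values are normalized counts, given as replicate 1 and then replicate 2 of an age, and fold changes are E13.5 over E10.5. The SE after ± was worked back from the test, as the absolute log2 fold change or difference divided by the square root of F. Where counts are near 0 it depends on the prior count, as the fold change does, and is no measure of the spread. For a gene with no count at E10.5 or at E13.5 the fold is a lower bound, set against 3 reads over the 2 libraries of that age together. For a gene with 1 to 3 reads there, it is the ratio of the summed counts with its 95% interval for counting error. Because the fitted values of such genes depend on the prior count, list medians are also given with the genes without a read at their bounds.

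**Figure D1:**
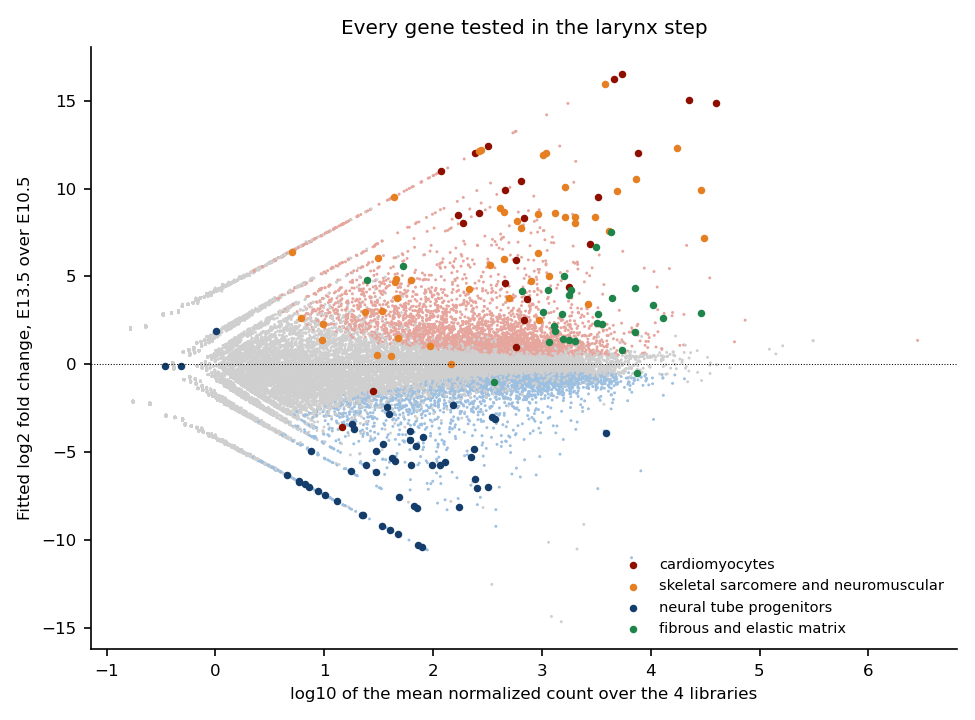
Fitted log2 fold change of the genes tested (vertical axis) against the log10 of their mean normalized count over the 4 larynx libraries (horizontal axis). Called genes are in pale red (higher at E13.5) or pale blue (lower) and 4 gene lists in darker colours. Of the 35512 genes tested, those with no read in these 4 libraries are not drawn. Many heart and skeletal muscle genes lie near the top of the plot and many neural tube genes near the bottom.

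Heart muscle genes were among the largest rises. Myh6, which encodes the alpha cardiac myosin heavy chain and lies on chromosome 14 (55179367 to 55205887, GRCm39), stood at 3.997 and 1.41 at E10.5 and 57875 and 101608 at E13.5 (log2 fold change 14.89 ± 1.84 SE, adjusted p = 2.02e-06). No read of Nppa, the atrial natriuretic peptide, was counted at E10.5, against 5157 and 13319 at E13.5 (at least 6937-fold higher, adjusted p = 0.00153). Both libraries of E13.5 were far above both of E10.5 in these genes, and replicate 2 was the higher of the pair. The atrial myosin light chain Myl7 had 0 and 2.11 at E10.5 and 27884 and 62404 at E13.5 (34243-fold higher by summed counts, counting interval 11717 to 166051, adjusted p = 4.32e-07). Mybpc3, the cardiac myosin-binding protein, went from 0 and 0 to 7810.3 and 14016 (at least 8416-fold higher, adjusted p = 3.76e-06), and Tnnt2, cardiac troponin T, from 0 and 6.33 to 9512 and 21322 (log2 fold change 12.01 ± 1.31 SE, adjusted p = 3.73e-07). Beside these contractile proteins stood Csrp3, a protein of the heart and muscle sarcomere edge, at 0 and 0 at E10.5 and 5143 and 9987 at E13.5 (at least 5799-fold higher, adjusted p = 1.32e-06). The ventricular light chain Myl2 was at 223 and 745 at E13.5 and had no read at E10.5 (at least 358-fold higher, adjusted p = 0.000101).

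Of 24 genes on the cardiomyocyte list, 22 rose and none fell, with a median log2 fold change of 8.56 (8.39 at the bounds). In other fits 1 gene was lower with no filter, a filter of 10 counts, DESeq2, only the 4 libraries or the 10 larynx libraries. The list includes regulators of heart formation. Gata4, a zinc finger factor of the heart field, went from 0.999 and 0.703 to 902 and 1666 (1482-fold higher by summed counts, counting interval 409.9 to 12243, adjusted p = 1.07e-06), and Tbx5, a T-box factor of the atria and of the lung field, from 5.995 and 2.81 to 1236 and 1482 (log2 fold change 8.30 ± 1.10 SE, adjusted p = 4.98e-06). Tbx20, a T-box factor of heart and motor neurons, rose from 78.9 and 239 to 2809 and 3957 (log2 4.40, adjusted p = 0.00534, a call lost without E10.5 replicate 1, adjusted p up to 0.0813), and Bmp10, a ligand made by atrial muscle, had no read at E10.5 and 536 and 732 at E13.5 (at least 499.9-fold higher, adjusted p = 0.000243). The 2 members not called were Hand1 and Irx4, which mark ventricular muscle, with 15.99 and 38.7 at E10.5 and 3.32 and 0.918 at E13.5 for Hand1 and 37.97 and 45.005 at E10.5 and 11.96 and 17.4 at E13.5 for Irx4.

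Summed over the 24 genes, the libraries of E10.5 held 988.2 and 1099 normalized counts and those of E13.5 128417 and 246475. The same sum was 2118 and 1596 in the larynx at E11.5 and 7636 and 7083 at E15.5, so the level at E13.5 stood above the levels of the ages on both sides. Myh6 itself was at 74.8 and 37.4 at E11.5 and at 343 and 300.4 at E15.5. At E15.5 Myl7 was at 14.6 and 15.9 and Mybpc3 at 11.0 and 10.1, and Gata5 and Bmp10 had no read. Myl2 did not peak at E13.5, as it was at 548 and 593 at E15.5 and at 752 and 1475 at E18.5. Csrp3, of the skeletal list, stood at 4025 and 3044 at E15.5 and at 6577 and 7553 at E18.5. How far tissue cut with the larynx at E13.5 enters these values was not tested.

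**Figure D2:**
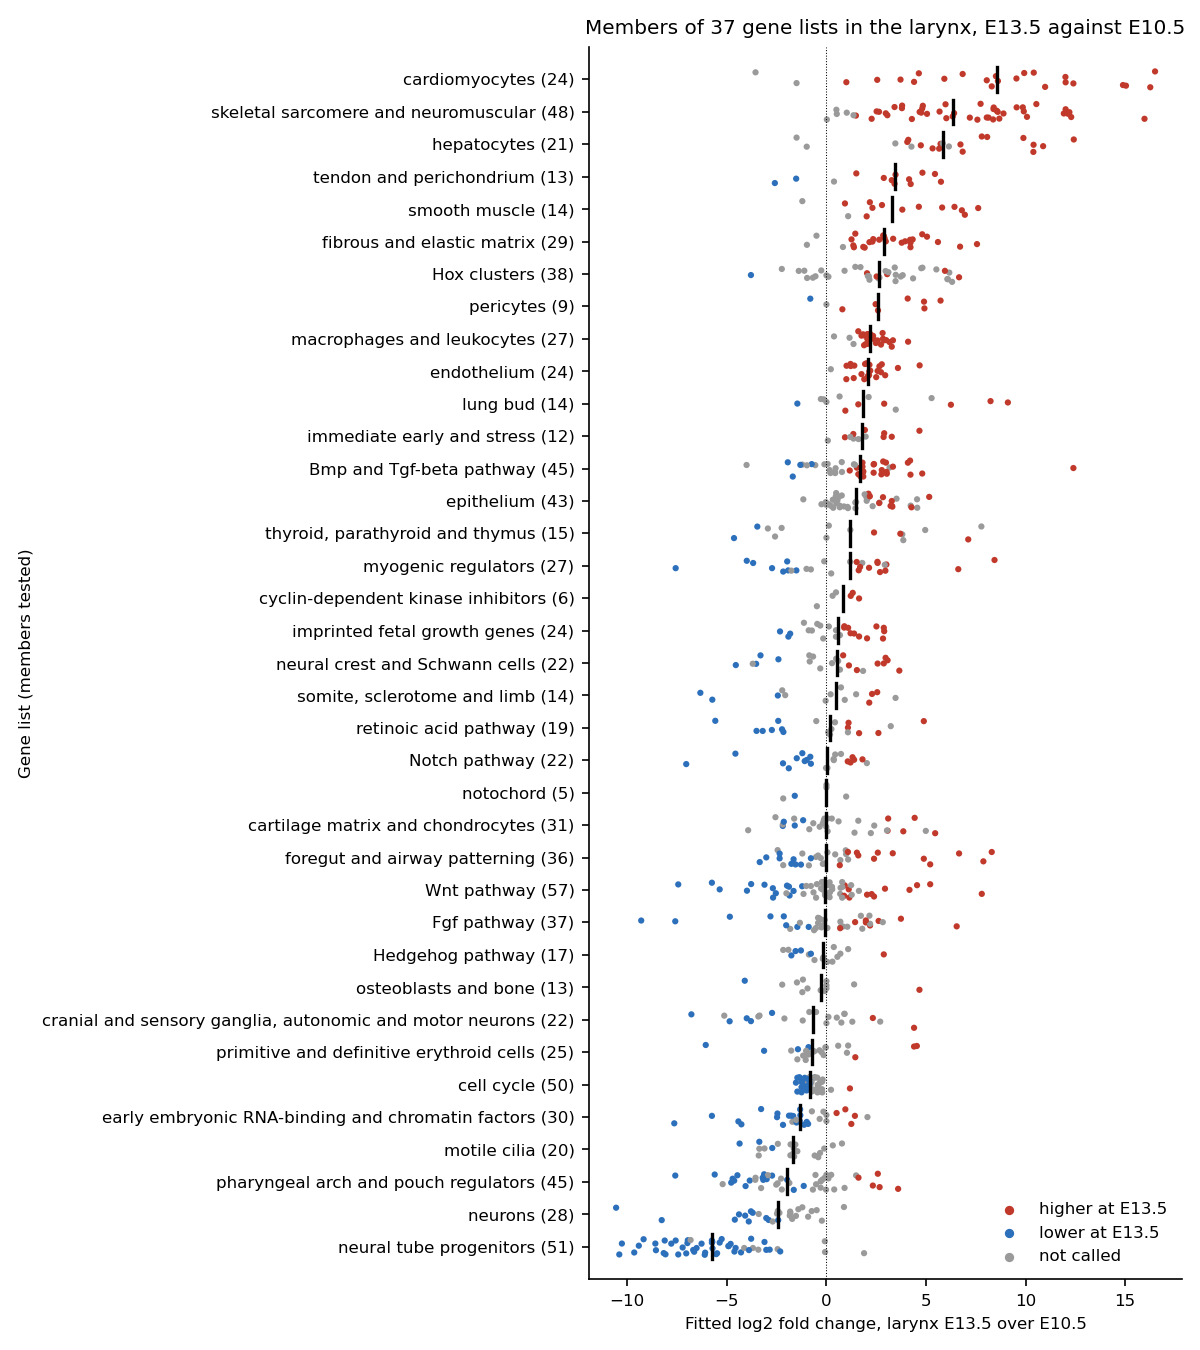
Fitted log2 fold change (horizontal axis) of the tested members of 37 gene lists, ordered by their medians (black bars), with members called higher at E13.5 in red, lower in blue and not called in grey. The cardiomyocyte list has the highest median (8.56) and the neural tube progenitor list the lowest (−5.75).

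Genes of the mesothelium, the sheet that lines the body cavities and covers the heart, stood beside the heart genes among the rises. Upk3b, a uroplakin that marks mesothelial cells, had no read at E10.5 and 2118 and 4828 at E13.5 (at least 2631-fold higher, adjusted p = 5.44e-09). After seeing this, 4 more mesothelial genes were looked up, so they are a description only. Wt1, a factor of the epicardium, was at 0 and 2.11 at E10.5 and 247 and 432 at E13.5, and Msln, mesothelin, at 0 and 2.11 at E10.5 and 179 and 408 at E13.5. Lrrn4 went from 0.999 and 7.74 to 560.3 and 1104 and Muc16, a surface mucin, from 0 and 0.703 to 509 and 842. In each of the 5 genes both libraries of E13.5 exceeded both of E10.5, again with the higher value in replicate 2.

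Liver genes rose with the opposite order of the replicates. Alb, serum albumin, was at 0.999 and 0 at E10.5 and 5091 and 753 at E13.5 (7923-fold higher by summed counts, counting interval 1422 to 312982, adjusted p = 0.00278), and Afp, alpha-fetoprotein, at 0 and 68.2 at E10.5 and 6681 and 1005 at E13.5 (log2 fold change 6.73 ± 2.01 SE, adjusted p = 0.0188). Replicate 1 of E13.5 was several times higher than replicate 2 in both. Of 21 hepatocyte genes 15 rose and none fell (median log2 5.84, 5.73 at the bounds), and their sum was 655.5 and 941.6 at E10.5 against 19812 and 3795 at E13.5. Fga, the fibrinogen alpha chain, was at 0 and 0 at E10.5 and 277 and 37.6 at E13.5 (at least 142.7-fold higher, adjusted p = 0.017). Sftpc, the lung surfactant protein C, was at 0 and 0 at E10.5 and 69.1 and 0.918 at E13.5, so that its rise rested on 1 library. Scgb3a2, a secretoglobin of airway lining, was at 0 and 0 at E10.5 and 93.7 and 33.96 at E13.5, also higher in replicate 1. The calls were lost for Alb (without E10.5 replicate 2, adjusted p up to 0.0568), Afp (without E10.5 replicate 1 or E13.5 replicate 1, adjusted p up to 0.147), Fga (without E10.5 replicate 1, E10.5 replicate 2 or E13.5 replicate 1, adjusted p up to 0.141), Sftpc (without E10.5 replicate 2 or E13.5 replicate 1, adjusted p up to 0.453) and Scgb3a2 (without E10.5 replicate 1, E10.5 replicate 2 or E13.5 replicate 1, with a replicate block within each age or without the E11.5 larynx libraries, adjusted p up to 0.205). Of the 21 hepatocyte genes 1 gene was higher without E10.5 replicate 1, E10.5 replicate 2 or E13.5 replicate 1.

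Skeletal muscle genes also rose, though many of them are shared with the heart. Of 48 tested members of the list of skeletal sarcomere and neuromuscular genes, 43 rose and none fell (median log2 6.37, 6.05 at the bounds). Actc1, the actin of heart and embryonic skeletal muscle, was at 17.99 and 99.9 at E10.5 and 43099.5 and 73398 at E13.5 (log2 fold change 9.91 ± 1.07 SE, adjusted p = 3.35e-07). Casq1, a calcium store protein of the muscle reticulum, was at 4.996 and 1.41 at E10.5 and 2330.5 and 4217 at E13.5 (log2 fold change 10.07 ± 1.3 SE, adjusted p = 3.8e-06), and Tnni1, the slow troponin I, which the embryonic heart expresses too, at 4.996 and 13.4 at E10.5 and 8958 and 20216 at E13.5 (log2 fold change 10.54 ± 0.913 SE, adjusted p = 1.69e-08). Ckm, muscle creatine kinase, had no read at E10.5 and 324 and 784 at E13.5 (at least 418-fold higher, adjusted p = 6.37e-07), and Cav3, the muscle caveolin, had none at E10.5 and 355 and 700.3 at E13.5 (at least 404-fold higher, adjusted p = 6.57e-07). In these 5 genes the higher library of E13.5 was replicate 2, as in the heart genes. The source of their rise was not tested.

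Other genes of the list had smaller fold changes. Mylpf, the fast skeletal light chain, was at 15.99 and 24.6 at E10.5 and 277 and 537 at E13.5 (log2 fold change 4.29 ± 0.785 SE, adjusted p = 0.000263), and Myh3, the embryonic myosin heavy chain, at 22.98 and 109 at E10.5 and 2057 and 2427 at E13.5 (log2 fold change 5.05 ± 0.881 SE, adjusted p = 0.000159). Ttn, the giant elastic protein of heart and skeletal muscle, went from 114 and 714 to 55731 and 66339 (log2 7.20, adjusted p = 2.58e-05). In all 3 both libraries of E13.5 were higher. Acta1, the skeletal alpha actin, followed with 0 and 10.55 at E10.5 and 935 and 1638 at E13.5 (log2 fold change 7.74 ± 1.06 SE, adjusted p = 7.42e-06), and the log2 fold change of Acta1 was 13.40 without E10.5 replicate 2.

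The regulators of myogenesis split. Myog, which commits myoblasts to differentiate, was at 8.99 and 31.6 at E10.5 and 138 and 207 at E13.5 (log2 fold change 3.01 ± 0.714 SE, adjusted p = 0.00339), and Mymk, needed for myoblast fusion, had no read at E10.5 and 27.9 and 54.2 at E13.5 (at least 31.5-fold higher, adjusted p = 0.00013). Mef2c, a partner of the myogenic factors that the heart and vessels also use, rose from 212 and 355 to 1558 and 1788 (log2 2.56, adjusted p = 4.76e-05). Pax3 and Pax7, which mark muscle progenitors and also the dorsal neural tube, both fell: Pax3 from 414 and 669 to 1.99 and 3.67 (log2 fold change -7.57 ± 0.978 SE, adjusted p = 3.7e-06) and Pax7 from 267 and 292 to 20.6 and 22.9 (log2 fold change -3.68 ± 0.59 SE, adjusted p = 6.01e-05). The determination factors Myod1 and Myf5 were not called, with 8.99 and 15.47 at E10.5 and 28.6 and 59.7 at E13.5 for Myod1 and 19.98 and 25.3 at E10.5 and 12.6 and 13.8 at E13.5 for Myf5. On the whole list of 27 regulators 11 rose and 8 fell, the falls including Ebf3, which serves neurons as well as muscle (log2 -2.17, adjusted p = 0.00969). Calls were lost for Myog (without E10.5 replicate 1, adjusted p up to 0.0629) and Ebf3 (without E10.5 replicate 2 or E13.5 replicate 2, adjusted p up to 0.146), and among the 27 regulators 5 genes were lower without E10.5 replicate 2 and 3 lower without E13.5 replicate 2.

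Myog and Mylpf were higher at E11.5 than at E13.5 in both libraries. At E11.5 Myog was at 957 and 496 and Mylpf at 902 and 629.8. At E15.5 Myog was at 1423 and 1006 and Mylpf at 65611 and 58430.3. This step was looked at after its values were seen and was not tested. The call of Myog between E10.5 and E13.5 was lost without E10.5 replicate 1 (adjusted p = 0.0629).

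The promoters of 4 genes of the skeletal lists are shown because the E-box CAGCTG, the letters that myogenic factors are known to bind, lies in them. They are the 4 with the largest fitted rise among the called members that hold it within 250 bases before to 50 bases after the start. Each is printed as the 250 bases before the RefSeq start (build GRCm38.p6), 5′ to 3′ on the gene's strand, with CAGCTG and the Mef2 core TAAAAATA, searched on both strands, in capitals.
Ckm, chr7:19410844-19411093, plus strand: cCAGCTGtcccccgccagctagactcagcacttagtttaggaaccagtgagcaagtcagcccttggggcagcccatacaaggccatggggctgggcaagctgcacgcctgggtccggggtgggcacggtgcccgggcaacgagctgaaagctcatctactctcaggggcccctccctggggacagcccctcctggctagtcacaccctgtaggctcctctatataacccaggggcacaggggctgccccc
Cav3, chr6:112459255-112459504, plus strand: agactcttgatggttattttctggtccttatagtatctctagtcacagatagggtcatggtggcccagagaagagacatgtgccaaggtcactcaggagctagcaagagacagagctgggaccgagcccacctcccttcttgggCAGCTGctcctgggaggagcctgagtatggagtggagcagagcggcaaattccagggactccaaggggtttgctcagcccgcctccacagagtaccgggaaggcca
Tnni1, chr1:135799171-135799420, plus strand: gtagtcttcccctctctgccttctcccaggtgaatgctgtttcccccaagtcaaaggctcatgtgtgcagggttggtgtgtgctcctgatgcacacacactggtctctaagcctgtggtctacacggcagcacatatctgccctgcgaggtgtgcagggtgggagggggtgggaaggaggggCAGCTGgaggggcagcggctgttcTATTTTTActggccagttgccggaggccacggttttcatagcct
Casq1, chr1:172219896-172220145, minus strand: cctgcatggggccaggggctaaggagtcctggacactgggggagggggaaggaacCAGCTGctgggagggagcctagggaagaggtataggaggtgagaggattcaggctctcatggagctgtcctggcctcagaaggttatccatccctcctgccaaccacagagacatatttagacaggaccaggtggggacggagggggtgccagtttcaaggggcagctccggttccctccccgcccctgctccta
The E-box begins 249 bases before the start in Ckm, 106 in Cav3, 68 in Tnni1 and 195 in Casq1, and only Tnni1 has the Mef2 core as well, 44 bases before its start and apart from the E-box. Of the 48 skeletal sarcomere genes 37 had a promoter in the table, and 18 of these (48.6%) held CAGCTG, against 4353 of 27018 promoters in all (16.1%). Of the 14 myogenic regulators with a promoter, 1 held it. The Mef2 core was in 2 of the 37 and in 732 of all (2.71%). A match of letters describes the sequence and says nothing of binding, and no binding was measured here.

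Cartilage genes, by contrast, did not rise as a group. Col2a1, the main cartilage collagen, was at 2971 and 3119 at E10.5 and 677 and 659 at E13.5 (log2 fold change -2.19 ± 0.759 SE, adjusted p = 0.045), and Sox9, the factor that sets up cartilage, at 578 and 612 at E10.5 and 239 and 155.1 at E13.5 (log2 fold change -1.59 ± 0.496 SE, adjusted p = 0.025). Both genes were lower in both libraries of E13.5. Acan, the large cartilage proteoglycan, was not called at 8.99 and 8.44 at E10.5 and 59.2 and 32.1 at E13.5, and Comp, a matrix protein of cartilage and tendon, was at 1.998 and 0 at E10.5 and 12.6 and 29.4 at E13.5 (23.8-fold higher by summed counts, counting interval 6.27 to 202, adjusted p = 0.0447). Of 31 cartilage genes 5 rose and 4 fell (median log2 −0.01). All of these were among the 25 with a mean of 10 or more, counts near the 21.5% higher and 17.2% lower of all such genes. The rises included Matn4 (7.99 and 2.81 to 292 and 166, log2 5.46, adjusted p = 0.000127) and Cytl1 (4.996 and 2.81 to 84.4 and 25.7, log2 3.86, adjusted p = 0.00492), and Fgfr3, a receptor on chondrocytes and on neural progenitors, fell from 914 and 1039 to 285 and 155.1 (log2 -2.14, adjusted p = 0.000687). At E15.5, Col2a1 was at 42768 and 16102 and Acan at 8046 and 3525. The calls were lost for Col2a1 (without each of the 4 in turn, with TMM normalization, all 40 libraries or the replicate block, without the E11.5 larynx libraries or without the 3 libraries rich in olfactory receptor genes, adjusted p up to 0.219), Sox9 (without each of the 4 in turn, adjusted p up to 0.236), Comp (without E10.5 replicate 1, E10.5 replicate 2 or E13.5 replicate 2, with all 40 libraries or the replicate block, without the E11.5 larynx libraries, among protein-coding genes or without the 3 libraries rich in olfactory receptor genes, adjusted p up to 0.333) and Cytl1 (without E10.5 replicate 2 or E13.5 replicate 1, adjusted p up to 0.121), and on the list 2 genes were higher without E10.5 replicate 1 or E13.5 replicate 1, 1 higher without E10.5 replicate 2, 1 lower without E10.5 replicate 2 or E13.5 replicate 2 and 2 lower without E13.5 replicate 1. In other fits 10 genes were higher with no filter, 9 higher with only the 4 libraries or the 10 larynx libraries, 3 higher with all 40 libraries, 8 lower with no filter, 7 lower with DESeq2 and 2 lower with all 40 libraries.

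Of 13 bone genes, 6 of which are expressed at a mean of 10 or more, 1 rose and 1 fell, and no left-out library moved a count by over 1.5 times. In other fits 2 genes were higher with no filter or the 10 larynx libraries, 4 lower with no filter, 2 lower with only the 4 libraries and 3 lower with the 10 larynx libraries. Sp7, a factor of osteoblasts, was not called at 7.99 and 14.8 at E10.5 and 11.3 and 7.34 at E13.5. Phex, an endopeptidase, rose from 2.998 and 18.3 to 414 and 169 (log2 fold change 4.67 ± 0.847 SE, adjusted p = 0.00024).

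Fibrous and elastic matrix genes rose in 26 of 29 cases, and none fell (median log2 2.88). Col1a1 and Col3a1 encode the chains of the fibrillar collagens of loose connective tissue. The first was at 586 and 756 at E10.5 and 14325 and 12745 at E13.5 (log2 fold change 4.33 ± 0.456 SE, adjusted p = 2.27e-07), and the second at 6588 and 6842 at E10.5 and 55354 and 46070.5 at E13.5 (log2 fold change 2.92 ± 0.309 SE, adjusted p = 2.46e-07). Eln, elastin, which gives vocal folds and vessel walls their recoil and lies on chromosome 5 (134731445 to 134776322, GRCm39), went from 40.97 and 49.9 to 12128 and 5088 (log2 fold change 7.56 ± 0.762 SE, adjusted p = 1.3e-07). Dcn, the small proteoglycan decorin, went from 64.9 and 55.6 to 6801 and 5767 (log2 fold change 6.71 ± 0.387 SE, adjusted p = 2.65e-11). The spread between the libraries of an age was small beside these rises, although Eln was more than 2 times higher in replicate 1 of E13.5. The 3 members not called were Fbn2, Has2 and Vcan, of which Vcan, the proteoglycan versican of embryonic matrix, stood at 6194 and 11451 at E10.5 and 7458 and 5006 at E13.5.

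Tendon and perichondrium genes rose in 10 and fell in 2 of 13 (median log2 3.42). Thbs2, a thrombospondin, was at 75.9 and 70.3 at E10.5 and 4510.0 and 3382 at E13.5 (log2 fold change 5.75 ± 0.326 SE, adjusted p = 2.11e-11), and Col14a1, a collagen of fibre surfaces, at 31.98 and 30.2 at E10.5 and 1651 and 1068 at E13.5 (log2 fold change 5.45 ± 0.392 SE, adjusted p = 1.13e-09). Scx, the tendon factor, was not called at 16.99 and 33.8 at E10.5 and 34.6 and 32.1 at E13.5, and Mkx, another tendon factor, fell from 126 and 70.3 to 22.6 and 9.18 (log2 -2.59, adjusted p = 0.0012). Smooth muscle genes rose in 12 of 14 (median log2 3.30, none lower). Among them Acta2, smooth muscle actin, was at 107 and 146 at E10.5 and 11184 and 10729 at E13.5 (log2 fold change 6.43 ± 0.474 SE, adjusted p = 1.64e-09), Cnn1, calponin, at 12.99 and 8.44 at E10.5 and 1848 and 2319 at E13.5 (log2 fold change 7.62 ± 1.03 SE, adjusted p = 6.29e-06), and Myh11, smooth muscle myosin, at 10.99 and 8.44 at E10.5 and 1891 and 509 at E13.5 (log2 fold change 6.95 ± 1.04 SE, adjusted p = 2.44e-05). Acta2 and Cnn1 are also expressed by embryonic heart muscle. At E13.5 Myh11 and, by little, Acta2 were higher in replicate 1 and Cnn1 in replicate 2. The source of these rises was not tested.

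**Figure D3:**
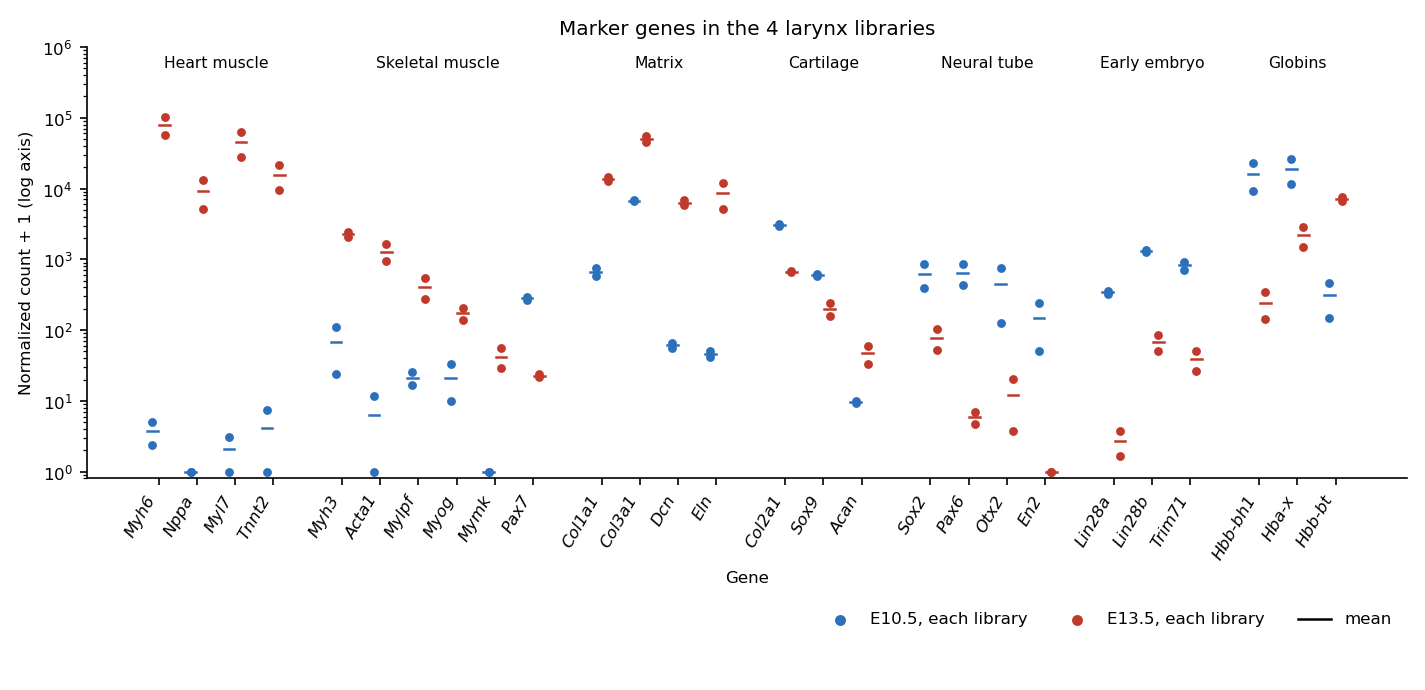
Normalized count plus 1 (log axis) of named marker genes in each of the 2 libraries of E10.5 (blue) and of E13.5 (red), with horizontal bars at the means. Myh6 rises from 3.997 and 1.41 to 57875 and 101608, and Pax6 falls from 846 and 432 to 5.98 and 3.67.

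Vessel and macrophage genes rose almost without exception. Of 24 endothelial genes 23 rose (median log2 2.11) and of 27 macrophage and leukocyte genes 24 rose (2.20), with none lower on either list. Pecam1, an adhesion molecule of vessel lining, was at 453 and 404 at E10.5 and 2728 and 2367 at E13.5 (log2 fold change 2.57 ± 0.235 SE, adjusted p = 3.32e-08), and Tek, the angiopoietin receptor, at 252 and 285 at E10.5 and 2832 and 3664 at E13.5 (log2 fold change 3.59 ± 0.274 SE, adjusted p = 2.86e-09). Lyve1, which marks lymphatic vessels and some macrophages, went from 27.98 and 16.2 to 648 and 469 (log2 4.68, adjusted p = 4.24e-07). Csf1r, the receptor for macrophage growth factor, was at 152 and 158 at E10.5 and 863 and 743 at E13.5 (log2 fold change 2.37 ± 0.255 SE, adjusted p = 2.88e-07), and the complement gene C1qa at 37.97 and 35.2 at E10.5 and 302 and 285 at E13.5 (log2 fold change 3.00 ± 0.311 SE, adjusted p = 1.84e-07). In each of these 5 genes the libraries of an age lay close together. Pericyte genes rose in 7 and fell in 1 of 9, with Rgs5 from 53.96 and 105 to 1992 and 729.7 (log2 4.08, adjusted p = 3.44e-06) and Abcc9, a channel subunit also found in heart, from 39.97 and 40.8 to 1914 and 2385 (log2 5.73, adjusted p = 8.54e-09). In other fits 0 pericyte genes were lower with TMM normalization, only the 4 libraries, the 10 larynx libraries or all 40 libraries.

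The globins changed from embryonic to adult genes within the erythroid list, of which 3 members were higher and 4 lower of 25. All 25 had a mean of 10 or more, and of all such genes 21.5% were higher and 17.2% lower. On the list 2 genes were lower without E10.5 replicate 2 or E13.5 replicate 2. In other fits 5 genes were higher with no filter and 9 lower with no filter. Hbb-bh1, an embryonic beta-like globin, was at 22722 and 9258 at E10.5 and 141 and 339.6 at E13.5 (log2 fold change -6.06 ± 0.576 SE, adjusted p = 1.66e-07), and Hba-x, embryonic zeta globin, at 26419.5 and 11678 at E10.5 and 1512 and 2835 at E13.5 (log2 fold change -3.13 ± 0.522 SE, adjusted p = 9.57e-05). The adult beta globins rose: Hbb-bt was at 469 and 146 at E10.5 and 6719 and 7523 at E13.5 (log2 fold change 4.54 ± 0.712 SE, adjusted p = 4.51e-05) and Hbb-bs at 1493 and 586 at E10.5 and 20679.7 and 23139.9 at E13.5 (log2 fold change 4.40 ± 0.722 SE, adjusted p = 7.99e-05). Hbb-y, the other embryonic beta-like globin, was not called at 54608 and 22270.3 at E10.5 and 12324 and 28266 at E13.5, and neither was the adult alpha globin Hba-a1 at 19924 and 6813 at E10.5 and 23456 and 33275 at E13.5. At E10.5 replicate 1 had 2 to 4 times the globin counts of replicate 2, and the differences between ages in the called globins were larger than that. These genes are near-identical copies in part, and reads could be split between Hbb-bs and Hbb-bt or between Hba-a1 and Hba-a2, so the values of single copies are uncertain.

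Neural tube genes were among the largest falls. Of 51 neural tube progenitor genes 43 fell and none rose, with a median log2 fold change of −5.75 (−4.91 with the 15 genes that had no read at E13.5 at their bounds). Pax6, a homeobox factor of eye and neural tube that lies on chromosome 2 (105499234 to 105530952, GRCm39), was at 846 and 432 at E10.5 and 5.98 and 3.67 at E13.5 (log2 fold change -6.98 ± 1.22 SE, adjusted p = 0.000179). Sox1, which marks neural progenitors, was at 664 and 300.3 at E10.5 and 7.98 and 1.84 at E13.5 (log2 fold change -6.52 ± 1.2 SE, adjusted p = 0.000272), and Hes5, the Notch target that keeps them dividing, at 668 and 347 at E10.5 and 5.32 and 1.84 at E13.5 (log2 fold change -7.04 ± 1.11 SE, adjusted p = 4.81e-05). En2 and Pax5, both of the midbrain-hindbrain border, had no read at E13.5. En2 had 241 and 49.2 at E10.5 (at least 111-fold lower, adjusted p = 0.000746) and Pax5 238 and 80.2 (at least 126-fold lower, adjusted p = 0.000913). With all 4 libraries the fall is larger than the spread between the libraries of E10.5 in each of these genes, although replicate 1 was the higher. Sox11, a factor of young neurons and mesenchyme, was among the most abundant of the list and went from 6217 and 8379 to 532 and 453 (log2 fold change -3.89 ± 0.352 SE, adjusted p = 2.97e-08).

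Further genes of progenitors and young neurons were named for the size of their fall. Lhx1 and Lhx5, LIM homeobox genes of spinal and hindbrain interneurons, were at 72.9 and 195 at E10.5 and 0.665 and 0 at E13.5 for Lhx1 (375-fold lower by summed counts, counting interval 66.8 to 14836, adjusted p = 0.00233) and at 109.9 and 79.5 at E10.5 and 0 and 0 at E13.5 for Lhx5 (at least 79.5-fold lower, adjusted p = 0.00873). Neurod4, which drives neuron formation, was at 269 and 423 at E10.5 and 1.99 and 0 at E13.5 (310.3-fold lower by summed counts, counting interval 106 to 1508, adjusted p = 0.000705), and Nhlh1, switched on as neurons are born, at 152 and 203 at E10.5 and 0 and 0 at E13.5 (at least 157-fold lower, adjusted p = 0.00167). Robo3, a guidance receptor of axons that cross the midline, fell from 348 and 1162 to 1.33 and 0.918 (714-fold lower by summed counts, counting interval 244 to 3464, adjusted p = 0.000171). The calls were lost for Lhx5 (without E13.5 replicate 1 or E13.5 replicate 2 or with DESeq2, adjusted p up to 0.0802), and of the 51 progenitor genes 20 genes were lower without E13.5 replicate 2.

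The 2 libraries of E10.5 differed in genes that mark positions along the brain. The genes of this paragraph were picked after their values were seen. Otx2, of forebrain and midbrain, was at 755 and 124 at E10.5 and 19.3 and 2.75 at E13.5, and Wnt8b, of the forebrain, at 244 and 2.11 at E10.5 and 3.99 and 0 at E13.5, so both were high in replicate 1. Hoxb3 and Hoxd3, which are off in the forebrain and on in the hindbrain and neck, were high in replicate 2: Hoxb3 was at 24.98 and 366 at E10.5 and 150.2 and 95.5 at E13.5 and Hoxd3 at 2.998 and 213 at E10.5 and 23.9 and 22.03 at E13.5. Genes of eye and forebrain were also looked up. Six6 was at 59.95 and 52.7 at E10.5 and 1.33 and 0 at E13.5, Rax at 29.98 and 31.6 at E10.5 and 0 and 0 at E13.5 and Pmel, a pigment cell gene, at 202 and 99.2 at E10.5 and 21.3 and 18.4 at E13.5. Otx2 was called as lower (log2 fold change -5.26 ± 1.46 SE, adjusted p = 0.0134) and so was Wnt8b (log2 -5.75, adjusted p = 0.0202), yet the calls were lost for Otx2 (without E10.5 replicate 1 or E13.5 replicate 2 or with DESeq2, adjusted p up to 0.223, log2 fold change -3.45 without E10.5 replicate 1) and Wnt8b (without E10.5 replicate 1 or E13.5 replicate 2 or with DESeq2 or a replicate block within each age, adjusted p up to 1, log2 fold change -0.02 without E10.5 replicate 1). The share of these falls that the extent of the dissected tissue carries was not tested.

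Of 38 Hox genes, which order the body axis, 5 rose and 1 fell, all of them among the 15 with a mean of 10 or more. On the list 3 genes were higher without E10.5 replicate 1, 3 lower without E10.5 replicate 1 and 0 lower without E10.5 replicate 2, E13.5 replicate 1 or E13.5 replicate 2. In other fits 16 genes were higher with no filter, 9 higher with DESeq2, 12 higher with only the 4 libraries, 3 higher with the 10 larynx libraries, 2 lower with no filter and 0 lower with the 10 larynx libraries. Hoxa5, needed for the larynx and trachea, went from 0 and 2.11 to 154.9 and 114 (111-fold higher by summed counts, counting interval 37.7 to 542, adjusted p = 8.51e-05), and Hoxa4 from 2.998 and 16.2 to 116 and 51.4 (log2 3.05, adjusted p = 0.00171). Both were lower in replicate 1 than in replicate 2 of E10.5, and the log2 fold change of Hoxa4 was 4.75 without E10.5 replicate 2. Hoxd8 had 0.999 and 0 at E10.5 and 36.6 and 29.4 at E13.5 (81.3-fold higher by summed counts, counting interval 14.2 to 3248, adjusted p = 0.00168), and without replicate 2 of E10.5 its adjusted p was 0.0502. Hoxa2 and Hoxa3, of pharyngeal arches, were not called, with 52.96 and 282 at E10.5 and 139.6 and 90.0 at E13.5 for Hoxa2 and 3.997 and 66.8 at E10.5 and 86.4 and 49.6 at E13.5 for Hoxa3.

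General neuron genes fell in 11 of 28 cases and rose in none (median log2 −2.43). Tubb3, the neuronal tubulin, was at 6929.6 and 6997 at E10.5 and 516 and 493 at E13.5 (log2 fold change -3.79 ± 1.13 SE, adjusted p = 0.0188), and Map2, a dendrite protein, at 3364 and 4256 at E10.5 and 362 and 223 at E13.5 (log2 fold change -3.70 ± 0.911 SE, adjusted p = 0.00463). Stmn2, of growing axons, was not called at 926 and 1103 at E10.5 and 312 and 304 at E13.5. The calls were lost for Tubb3 (without E10.5 replicate 2, E13.5 replicate 1 or E13.5 replicate 2, adjusted p up to 0.147) and Map2 (without E13.5 replicate 2, adjusted p up to 0.0818), and of the 28 neuron genes 4 genes were lower without E10.5 replicate 2, 5 lower without E13.5 replicate 1 and 2 lower without E13.5 replicate 2. In other fits 23 genes were lower with no filter, 22 lower with only the 4 libraries and 7 lower with all 40 libraries.

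Of 22 genes of cranial and sensory ganglia and of autonomic and motor neurons, 2 rose, 5 fell and 15 were not called (median log2 −0.69), while their summed counts were 2225 and 3569 at E10.5 and 5280.4 and 5786 at E13.5. The 2 rises were of Tbx20 and Hand2, which the heart uses too. Pou4f1, a factor of sensory neurons, fell from 146 and 205 to 2.66 and 0 (log2 fold change -6.78 ± 1.54 SE, adjusted p = 0.00234). Calls were lost for Tbx20 (without E10.5 replicate 1, adjusted p up to 0.0813), Hand2 (without E10.5 replicate 1 or E13.5 replicate 2 or with all 40 libraries, adjusted p up to 0.24) and Pou4f1 (without E13.5 replicate 2, adjusted p up to 0.0509). On the list 0 genes were higher without E10.5 replicate 1, 1 higher without E13.5 replicate 2, 2 lower without E10.5 replicate 2 or E13.5 replicate 1 and 0 lower without E13.5 replicate 2. In other fits 1 gene was higher with all 40 libraries and 8 lower with no filter or only the 4 libraries. Neural crest and Schwann cell genes went both ways, 8 higher and 4 lower of 22, and 5 genes were higher without E10.5 replicate 1. The crest factor Tfap2b fell from 578 and 908 to 29.2 and 33.96 (log2 -4.55, adjusted p = 0.00236). Sox10, which marks crest and glia at both stages, was not called at 44.97 and 86.5 at E10.5 and 46.5 and 25.7 at E13.5.

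Regulators of the pharyngeal arches fell in 16 and rose in 5 of 45 cases (median log2 −1.97, −1.86 at the bounds). Msx1, a homeobox gene of facial and arch mesenchyme, was at 692 and 499 at E10.5 and 15.95 and 27.5 at E13.5 (log2 fold change -4.78 ± 0.777 SE, adjusted p = 6.95e-05). Dlx6, a homeobox gene of the lower jaw, went from 34.97 and 49.2 to 1.33 and 0 (56.2-fold lower by summed counts, counting interval 15.2 to 470, adjusted p = 0.00421), and Prrx1, of limb and face mesenchyme, from 1448 and 2983 to 865 and 552 (log2 -1.64, adjusted p = 0.000457). In each of the 3 both libraries of E13.5 were lower. The rises included the signal pair endothelin 1 and its receptor: Edn1 was at 10.99 and 10.55 at E10.5 and 137 and 126 at E13.5 (log2 3.60, adjusted p = 1.57e-05) and Ednra at 352 and 453 at E10.5 and 1343 and 1109 at E13.5 (log2 1.61, adjusted p = 4.78e-05). Tbx1 and Pax9, of the pouches, were not called, with 26.98 and 59.1 at E10.5 and 52.5 and 27.5 at E13.5 for Tbx1 and 106 and 160.3 at E10.5 and 63.8 and 7.34 at E13.5 for Pax9. Calls were lost for Dlx6 (without E13.5 replicate 2, adjusted p up to 0.0701) and Ednra (with all 40 libraries, adjusted p up to 0.0613). Of the 45 genes 8 genes were lower without E13.5 replicate 2. In other fits 3 genes were higher with all 40 libraries.

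Genes of retinoic acid handling changed on both sides of the pathway. Aldh1a2, which makes retinoic acid in mesenchyme and mesothelium, was at 32.97 and 55.6 at E10.5 and 907 and 1757 at E13.5 (log2 fold change 4.89 ± 0.478 SE, adjusted p = 8.26e-08), and Aldh1a3, which makes it in epithelia of eye and nose, at 315 and 229 at E10.5 and 75.8 and 44.98 at E13.5 (log2 fold change -2.16 ± 0.478 SE, adjusted p = 0.00182). The binding proteins Crabp1 and Crabp2 fell from 3671 and 3014 to 461 and 265 for Crabp1 (log2 fold change -3.20 ± 0.396 SE, adjusted p = 2.06e-06) and from 2784 and 2278 to 271 and 173 for Crabp2 (log2 fold change -3.51 ± 0.41 SE, adjusted p = 9.12e-07). Dhrs3, which limits retinoic acid, rose from 103 and 90.0 to 597 and 579 (log2 2.61, adjusted p = 1.81e-07), and the degrading enzymes Cyp26a1, Cyp26b1 and Cyp26c1 all fell, Cyp26b1 from 241 and 881 to 120.3 and 89.0 (log2 -2.42, adjusted p = 0.00124). On the list of 19 genes 5 rose and 7 fell, and 4 genes were lower without E10.5 replicate 2 or E13.5 replicate 2. The calls of Aldh1a3 (without E13.5 replicate 2, adjusted p up to 0.0541), Cyp26b1 (without E10.5 replicate 2, adjusted p up to 0.152, log2 fold change -1.20 without E10.5 replicate 2), Cyp26a1 (without E10.5 replicate 2 or E13.5 replicate 2, adjusted p up to 0.125) and Cyp26c1 (without each of the 4 in turn, with the replicate block or without the E11.5 larynx libraries, adjusted p up to 0.263) were lost.

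Patterning genes of foregut and airway rose in 12 and fell in 9 of 36 (median log2 −0.03). Mesenchymal genes were among the rises, and the source of these was not tested. The study also cites Wnt2 as a marker of cardiac outflow tract cells. Wnt2, a signal from mesenchyme that induces the airway, was at 5.995 and 9.14 at E10.5 and 315 and 264 at E13.5 (log2 fold change 5.21 ± 0.591 SE, adjusted p = 6.14e-07), its relative Wnt2b at 32.97 and 47.1 at E10.5 and 203 and 219 at E13.5 (log2 fold change 2.39 ± 0.401 SE, adjusted p = 0.000103), and Gata6, a factor of foregut mesoderm and heart, at 5.995 and 4.92 at E10.5 and 1158 and 1443 at E13.5 (log2 fold change 7.88 ± 0.565 SE, adjusted p = 1.13e-09). Bmp4, a ventral mesenchymal signal, went from 167 and 165 to 503 and 501 (log2 1.6, adjusted p = 0.000101). The endodermal factors Nkx2-1 and Foxa2 were not called, with 52.96 and 3.52 at E10.5 and 27.9 and 17.4 at E13.5 for Nkx2-1 and 52.96 and 36.6 at E10.5 and 107 and 70.7 at E13.5 for Foxa2. Sox2, of dorsal foregut and of neural tube, fell from 856 and 392.4 to 102 and 51.4 (log2 fold change -3.02 ± 0.604 SE, adjusted p = 0.000698), beside the neural tube genes. On this list 4 genes were lower without E13.5 replicate 2.

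Genes of the Hedgehog pathway fell in 4 and rose in 1 of 17. All of these calls were among the 16 with a mean of 10 or more. Of all genes at that level 17.2% were lower and 21.5% higher. The ligand Shh was not called at 171 and 69.6 at E10.5 and 45.9 and 6.43 at E13.5 (log2 fold change -2.17 ± 0.793 SE, adjusted p = 0.0589). Ptch1, its receptor and target, fell from 1851 and 2656 to 915 and 629 (log2 fold change -1.55 ± 0.243 SE, adjusted p = 4.79e-05), and the transcription factor Gli3 from 2386 and 2492 to 808 and 631 (log2 fold change -1.76 ± 0.201 SE, adjusted p = 6.48e-07). Gli1, another target, was at 249.8 and 304 at E10.5 and 147 and 79.9 at E13.5 (log2 -1.28, adjusted p = 0.00903). Smo, the transducer, stood at 3095 and 2577 at E10.5 and 2777 and 2310.3 at E13.5 with no call. The call was lost for Gli1 (without E10.5 replicate 2 or E13.5 replicate 2 or with all 40 libraries, adjusted p up to 0.189), and on the list 0 genes were higher without E10.5 replicate 1, E10.5 replicate 2 or E13.5 replicate 1, 2 higher without E13.5 replicate 2 and 2 lower without E10.5 replicate 2 or E13.5 replicate 2. In other fits 2 genes were higher with TMM normalization, no filter, a filter of 10 counts, DESeq2 or only the 4 libraries, 3 higher without the 3 libraries rich in olfactory receptor genes, 7 lower with DESeq2 and 2 lower with all 40 libraries.

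Epithelial genes rose in 10 of 43 cases and fell in none (median log2 1.46, 1.45 at the bounds). All 10 were among the 39 members with a mean of 10 or more, a share near the 21.5% of all such genes called higher. The general markers Epcam and Cdh1 were not called, with 258 and 281 at E10.5 and 695 and 296 at E13.5 for Epcam and 222 and 340.3 at E10.5 and 450.0 and 205 at E13.5 for Cdh1. Several of those called are also made by mesothelium or heart muscle. Krt19, which mesothelium expresses too, was at 48.96 and 59.1 at E10.5 and 479 and 596 at E13.5 (log2 fold change 3.31 ± 0.72 SE, adjusted p = 0.00157), and Dsp, a desmosome protein of epithelium and heart, at 451 and 817 at E10.5 and 5119 and 6714 at E13.5 (log2 fold change 3.22 ± 0.825 SE, adjusted p = 0.00635). Krt7, a keratin of simple epithelia, rose from 71.9 and 90.0 to 448 and 722 (log2 2.84, adjusted p = 0.00254), and Krt17, of basal and stratified epithelium, from 0 and 3.52 to 102 and 49.6 (log2 5.16, adjusted p = 0.0114). The calls were lost for Dsp (without E10.5 replicate 1, adjusted p up to 0.0857) and Krt17 (without E10.5 replicate 1, E10.5 replicate 2 or E13.5 replicate 1, adjusted p up to 0.0955, log2 fold change 9.33 without E10.5 replicate 2). Of the 43 genes 4 genes were higher without E10.5 replicate 1. In other fits 26 genes were higher with no filter, 21 higher with only the 4 libraries, 20 higher with the 10 larynx libraries and 18 higher without the 3 libraries rich in olfactory receptor genes.

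Early embryonic RNA-binding and chromatin genes fell together. Of 30 tested, 18 fell and 4 rose (median log2 −1.33). Lin28a and Lin28b, which block the let-7 microRNAs, both fell, and only Lin28a nearly vanished: Lin28a was at 319.8 and 357 at E10.5 and 0.665 and 2.75 at E13.5 (log2 fold change -7.64 ± 1.16 SE, adjusted p = 2.94e-05) and Lin28b at 1349 and 1265 at E10.5 and 84.4 and 49.6 at E13.5 (log2 fold change -4.27 ± 0.55 SE, adjusted p = 4.37e-06). Trim71, a let-7 target that keeps progenitors dividing, was at 709 and 928 at E10.5 and 49.9 and 25.7 at E13.5 (log2 fold change -4.42 ± 0.719 SE, adjusted p = 7.08e-05), and Sall4, a factor of early stem cells, at 675 and 488 at E10.5 and 19.3 and 0.918 at E13.5 (log2 fold change -5.75 ± 1.02 SE, adjusted p = 0.000204). The ages did not overlap in any of the 4, and the log2 fold change of Sall4 was -9.14 without E13.5 replicate 1. Igf2bp1, which binds growth mRNAs, fell from 6648 and 7961 to 1634 and 1585 (log2 -2.18, adjusted p = 8.26e-08) and its relative Igf2bp3 from 3708 and 3666 to 1564 and 1379.6 (log2 -1.32, adjusted p = 0.00056). Dnmt3a, which methylates DNA, rose from 2362 and 2760.1 to 3547 and 3741 (log2 0.51, adjusted p = 0.038). Calls were lost for Igf2bp1 (with all 40 libraries, adjusted p up to 0.0765), Igf2bp3 (with all 40 libraries, adjusted p up to 0.318) and Dnmt3a (without each of the 4 in turn or with no filter, only the 4 libraries, the 10 larynx libraries, all 40 libraries or a replicate block within each age, adjusted p up to 0.544). On the list 0 genes were higher without E10.5 replicate 2, 2 higher without E13.5 replicate 1 and 1 higher without E13.5 replicate 2. In other fits 0 genes were higher with all 40 libraries.

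Cell cycle genes fell by small amounts, 21 of 50 lower and 1 higher (median log2 −0.83). Mki67, present only in dividing cells, was at 12292 and 14299 at E10.5 and 7047 and 4776 at E13.5 (log2 fold change -1.17 ± 0.3 SE, adjusted p = 0.00643), and Cenpf, a centromere protein of mitosis, at 4429.6 and 4794 at E10.5 and 1716 and 1638 at E13.5 (log2 fold change -1.46 ± 0.262 SE, adjusted p = 0.000215). Rrm2, which makes nucleotides for DNA synthesis, went from 3147 and 2300.2 to 989.7 and 894 (log2 -1.53, adjusted p = 0.00235). The single rise was of Ccnd3, a D-type cyclin, from 1337 and 1039 to 2285 and 3103 (log2 1.18, adjusted p = 0.00162). Cdk1, the mitotic kinase, was not called at 2007 and 1521 at E10.5 and 1550.1 and 1474 at E13.5. Of the 50 genes 8 genes were lower without E10.5 replicate 1 and 5 lower without E13.5 replicate 2. In other fits 32 genes were lower with no filter or the 10 larynx libraries and 10 lower with all 40 libraries. Calls were lost for Mki67 (without E10.5 replicate 2 or E13.5 replicate 2, adjusted p up to 0.136).  Of 6 inhibitors of cyclin-dependent kinases 3 rose, among them Cdkn1c, an imprinted one, at 2177 and 1785 at E10.5 and 5082 and 7299 at E13.5 (log2 1.64, adjusted p = 0.00204), a call lost with all 40 libraries, adjusted p up to 0.155. In other fits 1 of the inhibitors was higher with all 40 libraries. With a filter of 10 counts, DESeq2 or protein-coding genes alone 1 was lower.

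Imprinted growth genes rose in 11 and fell in 3 of 24, and no left-out library moved a count by over 1.5 times. In other fits 6 genes were lower with no filter, 5 lower with only the 4 libraries and 0 lower with all 40 libraries. Igf2, the fetal growth factor, was at 3753 and 6142 at E10.5 and 31757 and 39159 at E13.5 (log2 fold change 2.84 ± 0.357 SE, adjusted p = 2.58e-06), its clearing receptor Igf2r at 2488 and 3799 at E10.5 and 21353 and 25578 at E13.5 (log2 fold change 2.90 ± 0.361 SE, adjusted p = 2.21e-06), and the noncoding H19, the neighbour of Igf2, at 18001 and 25946 at E10.5 and 112377 and 138685 at E13.5 (log2 fold change 2.51 ± 0.38 SE, adjusted p = 2.8e-05). Ligand and receptor thus rose side by side, with no overlap between ages.

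Among signalling genes the Bmp and Tgf-beta pathway stood out by its counts, 25 higher and 4 lower of 45 (median log2 1.71), and 1 gene was lower without E13.5 replicate 2. Among ligands Bmp2 was at 19.98 and 23.9 at E10.5 and 201 and 161 at E13.5 (log2 fold change 3.03 ± 0.389 SE, adjusted p = 3.36e-06) and Bmp7 at 461 and 387 at E10.5 and 1009.7 and 1445 at E13.5 (log2 fold change 1.53 ± 0.319 SE, adjusted p = 0.00101). The receptor Tgfbr2 rose from 313 and 347 to 1923 and 1496 (log2 fold change 2.37 ± 0.189 SE, adjusted p = 4.99e-09), whereas its partner Tgfbr1 fell from 4354 and 4445 to 2870.2 and 2384 (log2 -0.74, adjusted p = 0.00265), a call lost without E13.5 replicate 2 or with all 40 libraries, adjusted p up to 0.13. All 4 binding proteins of latent Tgf-beta on the list, Ltbp1 to Ltbp4, rose, Ltbp1 from 379.7 and 580.1 to 3620.0 and 2912 (log2 2.76, adjusted p = 7.33e-07). The receptor Bmpr1a stood at 2991 and 3053 at E10.5 and 4486 and 3828 at E13.5 with no call, and the inhibitor Nog at 41.97 and 22.5 at E10.5 and 20.6 and 6.43 at E13.5, also without one.

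Wnt genes went both ways, 12 higher and 14 lower of 57, and 7 genes were higher without E10.5 replicate 2 or E13.5 replicate 1, 9 lower without E10.5 replicate 1 and 8 lower without E13.5 replicate 2. With a mean of 10 or more there were 55 Wnt genes, 12 higher and 14 lower, and 30 Fgf genes, 7 higher and 8 lower. Among all such genes 21.5% were higher and 17.2% lower, so the counts higher lay near the share of all. The canonical Wnt target Axin2 fell from 1177 and 1191 to 319.7 and 337 (log2 fold change -1.85 ± 0.251 SE, adjusted p = 6.71e-06), and the receptor Fzd3, which neural tissue uses, from 6868 and 7902 to 1443 and 1101 (log2 fold change -2.54 ± 0.286 SE, adjusted p = 5.63e-07). Sfrp5, a secreted Wnt inhibitor, rose from 0.999 and 0 to 93.7 and 148 (282-fold higher by summed counts, counting interval 50.3 to 11183, adjusted p = 3.27e-06), and Dkk3, a secreted modulator, from 198 and 175 to 2808 and 3919 (log2 4.17, adjusted p = 2.55e-07). Of 22 Notch genes 10 fell and 5 rose: the neural ligands Dll1 (log2 -2.18, adjusted p = 0.000202) and Dll3 (log2 -4.57, adjusted p = 0.00149) fell, and Jag1, of vessels and mesenchyme, rose from 936 and 1044 to 2297 and 1872 (log2 1.07, adjusted p = 0.00325). Among the Notch genes 3 genes were higher without E10.5 replicate 1, 2 higher without E10.5 replicate 2 or E13.5 replicate 1, 5 lower without E10.5 replicate 1 and 4 lower without E13.5 replicate 2. In other fits 2 genes were higher with all 40 libraries. In the Fgf pathway 8 of 37 rose and 8 fell, and 5 genes were higher without E10.5 replicate 2, 2 lower without E10.5 replicate 1 and 4 lower without E13.5 replicate 2. Fgf17, a signal of the midbrain-hindbrain border, had 139.9 and 9.14 at E10.5 and no read at E13.5 (at least 54.6-fold lower, adjusted p = 0.00408), a call lost without E10.5 replicate 1, adjusted p up to 0.109. Fgf8, a signal of arch and brain, went from 36.97 and 8.44 to 0 and 0 (at least 17.5-fold lower, adjusted p = 0.00994), a call lost without E10.5 replicate 1, E13.5 replicate 1 or E13.5 replicate 2 or with DESeq2, adjusted p up to 0.244.

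Immediate early genes, which respond within minutes to handling and signals, were higher in 7 of 12 cases and lower in none, as Fos showed with 29.98 and 18.3 at E10.5 and 169 and 182 at E13.5 (log2 2.87, adjusted p = 0.00258), a call lost without E10.5 replicate 2, adjusted p up to 0.0606. Of the 12 genes 4 genes were higher without E10.5 replicate 2. In other fits 11 genes were higher with no filter. Their part in the other results was not tested.

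At E11.5, between the 2 ages, the mean of the larynx libraries lay between the means of E10.5 and E13.5 for 2787 of the 3540 expressed genes called higher (78.7%) and for 2276 of the 2845 called lower (80%). The share is a description, since the genes were selected by the outer ages. The replicates of E11.5 were unlike each other for neural genes, with Pax6 at 3.94 and 207 and Tubb3 at 350.4 and 6839.8. Replicate 1 had 3286391 estimated reads, the fewest of the 30 libraries, and replicate 2 is one of the 3 libraries with many olfactory receptor genes.

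**Figure D4:**
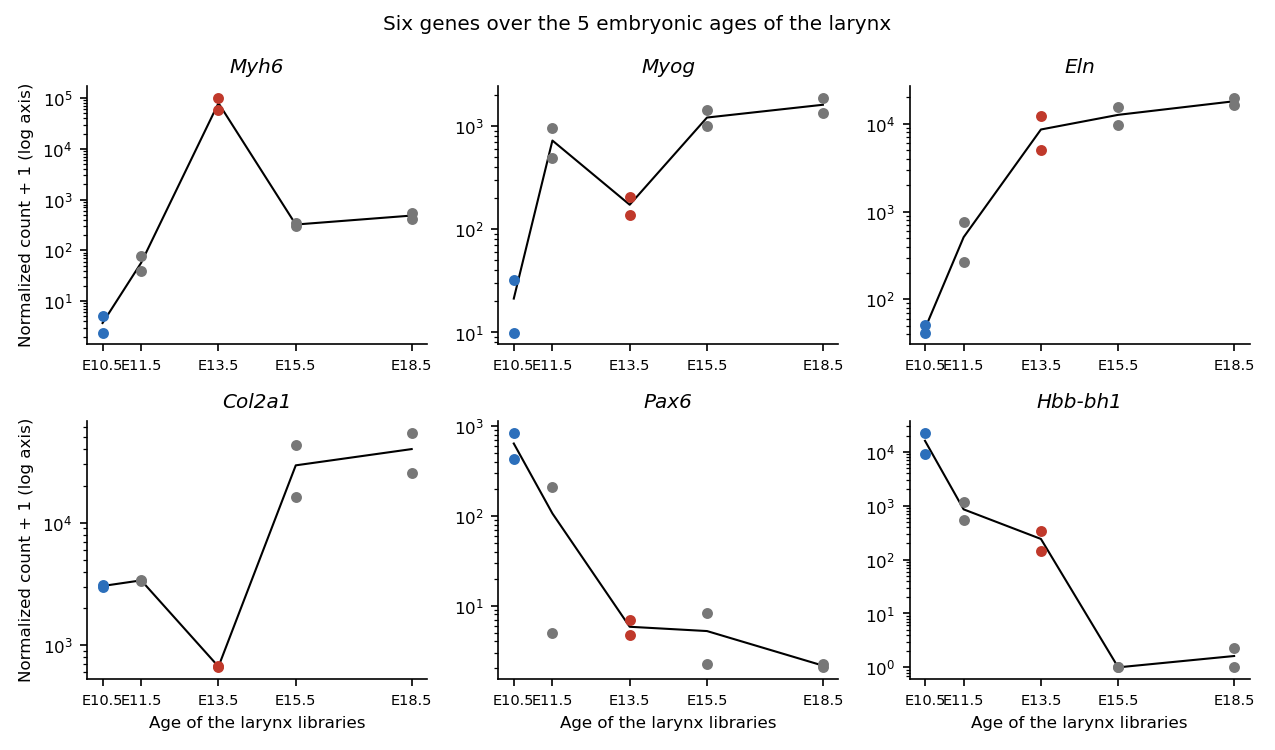
Normalized count plus 1 (log axis) of 6 genes in the larynx libraries of 5 embryonic ages, with points for each library (blue E10.5, red E13.5, grey others) and a line through the means. Myh6 peaks at E13.5, at 57875 and 101608 against 343 and 300.4 at E15.5, while Col2a1 is lowest at E13.5, at 677 and 659.

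Whether the larynx changed differently from the neighbouring organs was tested as the larynx step minus the mean of the trachea and esophagus steps over the same ages. Of the 35512 genes 278 (0.783%) had a higher step in the larynx and 12 (0.0338%) a lower one. Heart genes were again among the largest. Gata5, a heart and mesothelium factor, had no read in the larynx at E10.5 and 198 and 275 at E13.5, while the trachea had 195 and 164 and then 133 and 283 (adjusted p = 0.00224 for the difference, whose fitted size depends on the prior count). Myh6 was at 7330.2 and 13227 and then 22151 and 32729 in the trachea, a step that was not called (log2 1.42, adjusted p = 0.443). In the esophagus it rose from 127 and 3233 to 3189 and 36209 (log2 3.55, adjusted p = 0.0328), and the larynx step was larger than the mean of both (difference 12.41 ± 1.82 SE, adjusted p = 0.000557). At E10.5 both trachea libraries were thus far above the larynx, which had at most 4.00. Of the 24 cardiomyocyte genes 15 were in the higher group, and of the 48 skeletal sarcomere genes 22. The skeletal list, many of whose genes the heart shares, began from unlike levels. Its sum at E10.5 was 1335 and 2534 in the larynx, 80777 and 145713 in the trachea and 13365 and 19742 in the esophagus. At E13.5 it was 184206 and 306301 in the larynx, 99017 and 116083 in the trachea and 51446 and 206828 in the esophagus. Libraries of E13.5 with the same replicate number shared part of their spread across the organs. The cardiomyocyte sum was higher in replicate 2 in each organ, with 52188 and 84823 in the trachea and 10020.5 and 78024 in the esophagus. The hepatocyte sum was higher in replicate 1 in each, with 37912 and 1533 in the trachea and 47089 and 5016 in the esophagus. With a replicate block within each age, chosen after seeing the data, 358 genes were above and 21 below.

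Other genes with a higher step in the larynx were Acta2 (difference 4.23 ± 0.488 SE, adjusted p = 4.99e-05), Gata6 (6.39 ± 0.6 SE, adjusted p = 5.91e-06), Wnt2 (4.61 ± 0.656 SE, adjusted p = 0.000454), Aldh1a2 (3.80 ± 0.525 SE, adjusted p = 0.000372), Igf2r (2.23 ± 0.418 SE, adjusted p = 0.00678) and Tek (2.15 ± 0.309 SE, adjusted p = 0.000481). Each rose in the larynx itself. Acta2 and Gata6 are also expressed in the heart and Aldh1a2 in mesothelium, and the study cites Wnt2 as a marker of cardiac outflow tract cells. The source of their rise was not tested. For Wnt2 the esophagus stood at 93.5 and 80.05 and 133 and 90.6 at the 2 ages and the trachea at 238 and 94.0 and 220.0 and 378. No neural tube progenitor gene and no cell cycle, cartilage or epithelial gene of the lists passed this test in either direction, which does not show that their steps were alike.

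Of the genes with a lower step, Crabp1 (difference -2.42 ± 0.455 SE, adjusted p = 0.00678) went from 1558 and 1441 to 786 and 700.5 in the trachea. Aldh1a3 had a difference of -5.85 ± 0.63 SE, adjusted p = 4.11e-05, falling in the larynx and standing at 9.31 and 13.9 and then 148 and 43.1 in the trachea. It was called higher at E13.5 in the trachea (log2 3.06, adjusted p = 0.000363) and in the esophagus (log2 4.33, adjusted p = 8.26e-06). Foxd1, a forkhead gene of arch and facial mesenchyme and of the eye, fell in the larynx from 247 and 180.0 to 8.64 and 7.34 (difference -2.62 ± 0.634 SE, adjusted p = 0.0491). It was called lower in the trachea (log2 -2.04, adjusted p = 0.00761) and in the esophagus (log2 -2.15, adjusted p = 0.00401) too, by less. Without E13.5 replicate 2 there were 102 genes above and 2 below, of which 101 and 2 were among those called with all libraries. Without E10.5 replicate 1 there were 62 and 2, of which 61 and 2 were. In the larynx itself, Aldh1a3 lost its call without E13.5 replicate 2 (adjusted p = 0.0541).

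**Figure D5:**
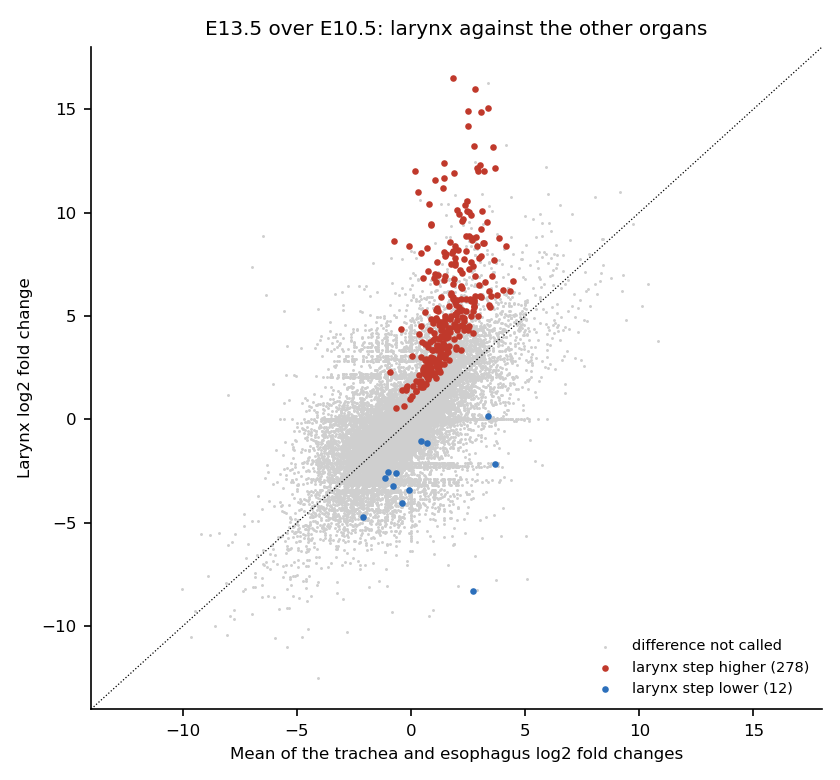
Larynx log2 fold change, E13.5 over E10.5 (vertical axis), against the mean of the trachea and esophagus log2 fold changes (horizontal axis) for 35512 genes, with the dotted line at equal change. The 278 genes with a higher step in the larynx (red) lie above the line and the 12 with a lower step (blue) below it.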

How the data were processed

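RNA from pooled wild type mouse tissue was sequenced, and reads were aligned and quantified by the authors with Bowtie2 2.4.2 and RSEM 1.3.3 after FastQC, on GRCm39 per the labels. The deposited table holds RSEM expected counts for 53647 Ensembl genes, not normalized. They were rounded to whole numbers. A gene was tested if its normalized count reached 1 in at least 2 of 30 libraries. Group means over 15 groups of 2 libraries were fitted with edgeR 4.0.16 (R 4.3.3), with DESeq2's median-of-ratios scaling, and compared by the quasi-likelihood F test with Benjamini-Hochberg adjustment over all genes tested. The threshold was an adjusted p of 0.05. Each SE printed is the absolute log2 fold change or difference divided by the square root of its F, not a fitted standard error. Printed counts were divided by the same size factors.

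The 4 larynx libraries and the gene lists were chosen with earlier results of these data known. Genes were named by a rule: the 15 largest rises and falls among protein-coding genes with a mean of at least 100 and no overlap, in each list the first 3 members, the 4 most abundant called and the 3 with the largest change, paired roles such as ligand and receptor, genes that the study names for neurogenesis or proliferation, and the 10 largest differences between organs in each direction. Others (members singled out where 5 or fewer were not called, and the mesothelial, eye, forebrain and further genes beside them) were named after their values were seen. Gene positions are from GENCODE vM39 and promoters from RefSeq. The proteins planned for the globins are not shown. Some genes that the rule names are not reported here. The fit was tested on simulated data. Alternatives were TMM normalization, other filters, DESeq2 1.42.0, other sets of libraries, a replicate block over all ages or within each age, protein-coding genes alone, and leaving out each library.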

Additional observations from a re-analysis of the deposited data

Results flagged for a closer look

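In the test of the larynx step against the mean of the trachea and esophagus steps, 278 genes were higher and 12 lower by edgeR's adjusted p, and the largest are given here as log2 differences. Above were Mybpc3 (14.66), Csrp3 (13.17), Myh6 (12.41), Myl2 (11.82), Upk3b (11.8), Hspb7 (11.69), Myl7 (11.66), Bmp10 (10.94), Gata5 (10.67) and Ankrd1 (10.52). Below were Aldh1a3 (−5.85), Crym (−3.67), Islr2 (−3.3), Foxd1 (−2.62), Crabp1 (−2.42), Lrrn1 (−1.94), Ptx3 (−1.85), Mycl (−1.72), Bcat1 (−1.51) and Myo5b (−1.49). For a gene with no read in the larynx at E10.5, such as Mybpc3, Csrp3 and Gata5, the size depends on the prior count and is no measure of the difference.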

How the results depend on the processing

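With 1 library left out, the step had 2432 to 3148 genes higher and 1187 to 2278 lower, and the difference from the other organs 62 to 260 higher and 2 to 17 lower. Of 253 called genes named by the rule, 46 to 56 lost their call then and 31 with all 40 libraries, and none changed direction in any alternative. At an adjusted p of at most 0.01, 1676 genes were lower in the step. In the difference DESeq2 called 563 higher and 73 lower, and with all 40 libraries in the fit 156 and 5 were called. TMM normalization moved the median log2 fold change by 0.11 and gave 3984 higher and 2315 lower. Leaving out the 3 libraries with many olfactory receptor genes, an alternative chosen after seeing the data, gave 4153 and 3695. The causes were not tested. Depth limits low genes most.

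Replicate numbers did not pair the larynx samples of E10.5 and E13.5, as deviations of same-numbered libraries correlated at −0.0935. Of 105 pairs of groups 13 exceeded 0.1. The highest were across ages, E11.5 larynx with E15.5 larynx (0.337) and with E15.5 trachea (0.338). In each of these groups replicate 2 is a library rich in olfactory receptor genes. With the replicate block 3661 genes were higher and 2931 lower in the step, and 251 and 8 in the difference. At E13.5 all 3 pairs of organs exceeded 0.1 (0.126 to 0.2), against 0.00675 to 0.108 at E10.5. With a replicate block within each age, chosen after seeing the data, 3667 were higher and 2746 lower in the step, and 358 and 21 in the difference.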
